A study of Mus musculus with 6 samples.

Results

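Serum response factor (Srf), its myocardin-family coactivators and a set of LIM-domain and actin-associated genes were followed in mouse podocytes that were stretched or left at rest. The set holds 10 genes, taken by gene symbol: Srf, Mrtfa and Mrtfb (listed under their older symbols Mkl1 and Mkl2), Myocd, Filip1l, Fhl1, Fhl2, Fhl3, Lima1 and Tgfb1i1. They were read by 19 of the 45037 probe sets tested, each a group of short probes for a transcript, and were 10 of 18193 genes with a probe set of a single symbol. The cells were SVI, a conditionally immortalized mouse podocyte line from kidney glomerulus, differentiated for 1 to 2 weeks at 38 °C in medium with 10% serum. The stretched group was strained cyclically along both axes for 3 days, at 0.5 Hz and up to 5% linear strain, and the unstretched group, cells of the same line, was not. Each group had 3 arrays, whose number limits the precision of every value, and the series speaks of 3 independent batches but not of what they consisted, so the spread behind each p-value may in part be technical.

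Srf is a transcription factor that binds the CArG box, a short element with a pair of C at its start, a run of A or T in the middle and a pair of G at its end. Its myocardin-related coactivators Mrtfa and Mrtfb bind monomeric actin. When actin assembles into filaments they are released, enter the nucleus and switch on genes of the contractile and adhesive cytoskeleton with Srf. A second class of Srf partners, the ternary complex factors of the Elk family, answers to MAP kinase signalling and drives immediate early genes. Podocytes, which wrap the glomerular capillaries, hold their foot processes in shape with actin cables under steady mechanical load.

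Array medians were 4.92 to 4.98 log2 units, and the SD over probe sets was 2.07 to 2.10 on stretched and 2.03 to 2.05 on unstretched arrays, so the spread of values was slightly wider in the stretched group. Pearson correlations across probe sets ran from 0.995 to 0.997 within the stretched group, 0.993 to 0.994 within the unstretched group and 0.987 to 0.990 across groups. Of 12 podocyte markers with a probe set, 3 (Tcf21, Ptpro and Cdkn1c) lay below the median probe set of the array, and nephrin (Nphs1), which defines the slit diaphragm, sat near it at 4.91 ± 0.24 in stretched and 5.01 ± 0.14 in unstretched cells (log2, SD, n = 3 each). Synaptopodin (Synpo) fell by 0.45 (SE 0.08, limma adjusted p = 0.00708) and Nes rose by 0.57 (SE 0.09, adjusted p = 0.00330) on the log2 scale. The other 10 markers did not pass an adjusted p of 0.05. The summed level of the list was 12.82 to 12.84 log2 units on stretched and 12.64 to 12.74 on unstretched arrays. Without Actn4, the brightest, the other 11 summed to 11.58 to 11.62 on stretched and 11.44 to 11.55 on unstretched arrays. Such sums weigh bright genes most, and the median log2 change of the list was -0.08. Actn4 and the next brightest, Cd2ap, did not pass (limma adjusted p = 0.204 and 0.124). Less RNA per cell and fewer cells of a type cannot be told apart in bulk RNA. The beta-actin control of the array, a sign of RNA quality read from the transcript of a known Srf target gene, had a 3' minus 5' log2 difference of 1.30 ± 0.05 in stretched and 1.57 ± 0.03 in unstretched cells (SD, n = 3 each; exact permutation test, two-sided, p = 0.1, which is the lowest that 3 against 3 arrays can reach). The part of that difference in the results given here was not tested.

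The sequence that Srf recognises stands close to the annotated start of several of these genes. RefSeq promoter windows on mouse build GRCm38.p6, each reaching from 250 bases before a start to 50 after it, were matched by symbol for 8 of the 10 genes, all but Myocd and Tgfb1i1, with 14 windows in all. The exact CArG box, whose search on either strand gives the same windows, was present in 6 of the 14 windows, belonging to Srf, Filip1l, Fhl1, Fhl2 and Lima1, against 1.63% of all 32851 windows of that length. The members include known Srf targets, so this share describes the set and was not tested. The 150 bases before each of those 6 starts are shown 5' to 3' along the gene's own strand, with the CArG boxes in capitals, to set the elements and their distance from the start beside each other.
Srf, chr17:46556163-46556312, minus strand: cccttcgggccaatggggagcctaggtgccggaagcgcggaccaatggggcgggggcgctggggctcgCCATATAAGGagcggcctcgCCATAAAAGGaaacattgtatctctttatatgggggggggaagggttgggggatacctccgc
Filip1l, chr16:57549092-57549241, plus strand: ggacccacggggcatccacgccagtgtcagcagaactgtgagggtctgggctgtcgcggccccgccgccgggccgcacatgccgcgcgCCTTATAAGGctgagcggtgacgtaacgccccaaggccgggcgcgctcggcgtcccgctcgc
Fhl1, chrX:56779533-56779682, plus strand: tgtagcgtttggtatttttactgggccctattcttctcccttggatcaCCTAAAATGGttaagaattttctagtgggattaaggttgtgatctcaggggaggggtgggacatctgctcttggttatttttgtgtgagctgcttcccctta
Fhl2, upstream start, chr1:43196762-43196911, minus strand: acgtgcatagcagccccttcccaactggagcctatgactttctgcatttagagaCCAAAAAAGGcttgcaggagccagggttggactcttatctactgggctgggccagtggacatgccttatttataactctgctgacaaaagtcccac
Fhl2, downstream start, chr1:43163962-43164111, minus strand: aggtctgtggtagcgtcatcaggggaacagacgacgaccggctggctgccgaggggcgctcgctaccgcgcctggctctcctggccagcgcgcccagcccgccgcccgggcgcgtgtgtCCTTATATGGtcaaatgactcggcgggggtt
Lima1, chr15:99820150-99820299, minus strand: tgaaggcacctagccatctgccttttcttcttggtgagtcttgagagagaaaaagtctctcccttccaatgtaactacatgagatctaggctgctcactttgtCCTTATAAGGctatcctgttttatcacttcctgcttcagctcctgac
The Srf window holds 2 boxes whose first bases lie 82 and 62 bases before the start. The box of Filip1l begins 62 bases before its start and has the same 10 letters as that of Lima1, which begins 47 bases before. The boxes of Fhl2 begin 96 and 31 bases before its starts, and that of Fhl1 begins 102 bases before. No exact box was found in the windows of Mrtfa (2 windows), Mrtfb (3) or Fhl3 (1), nor in the other window of Filip1l and of Fhl1, which says only that these letters are not there. A match is a stretch of letters and does not show that Srf was bound.

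With stretch, 6 of the 10 genes had a probe set that rose past the threshold (limma, Benjamini-Hochberg adjusted p under 0.05 over all probe sets), and 1 had a probe set that fell. Filip1l, Fhl2, Tgfb1i1, Mrtfa, Fhl1 and Lima1 were the genes that rose, Myocd had the lower probe set, and Srf, Mrtfb and Fhl3 had none past the threshold. In probe sets, 6 of 19 rose and 1 fell, against 6.47% of all probe sets that rose and 4.51% that fell. That array-wide balance of 2912 higher and 2030 lower calls depended on the scaling between arrays: it was 3300 and 1686 with arrays centred on medians, 2465 and 2240 with cyclic loess, and 2378 and 2336 with quantile normalization applied again. The stretched group lay wholly above the unstretched group in 9 of the 19, against 14.2% of all probe sets, and wholly below it in 1, against 15.3%. Among the 9 are the 4 Lima1 probe sets above the median probe set, which read 1 gene on the same arrays. The median log2 change was 0.11 over the 19 probe sets and -0.02 over all probe sets. All 6 that rose were among the 14 members above the median probe set of the array. With only probe sets above the median mean fitted, 8 of 14 members rose. Over the array 3067 of those brighter probe sets rose, against 2912 of all 45037. The share that rose over all probe sets is thus below that among brighter ones.

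**Figure D1:**
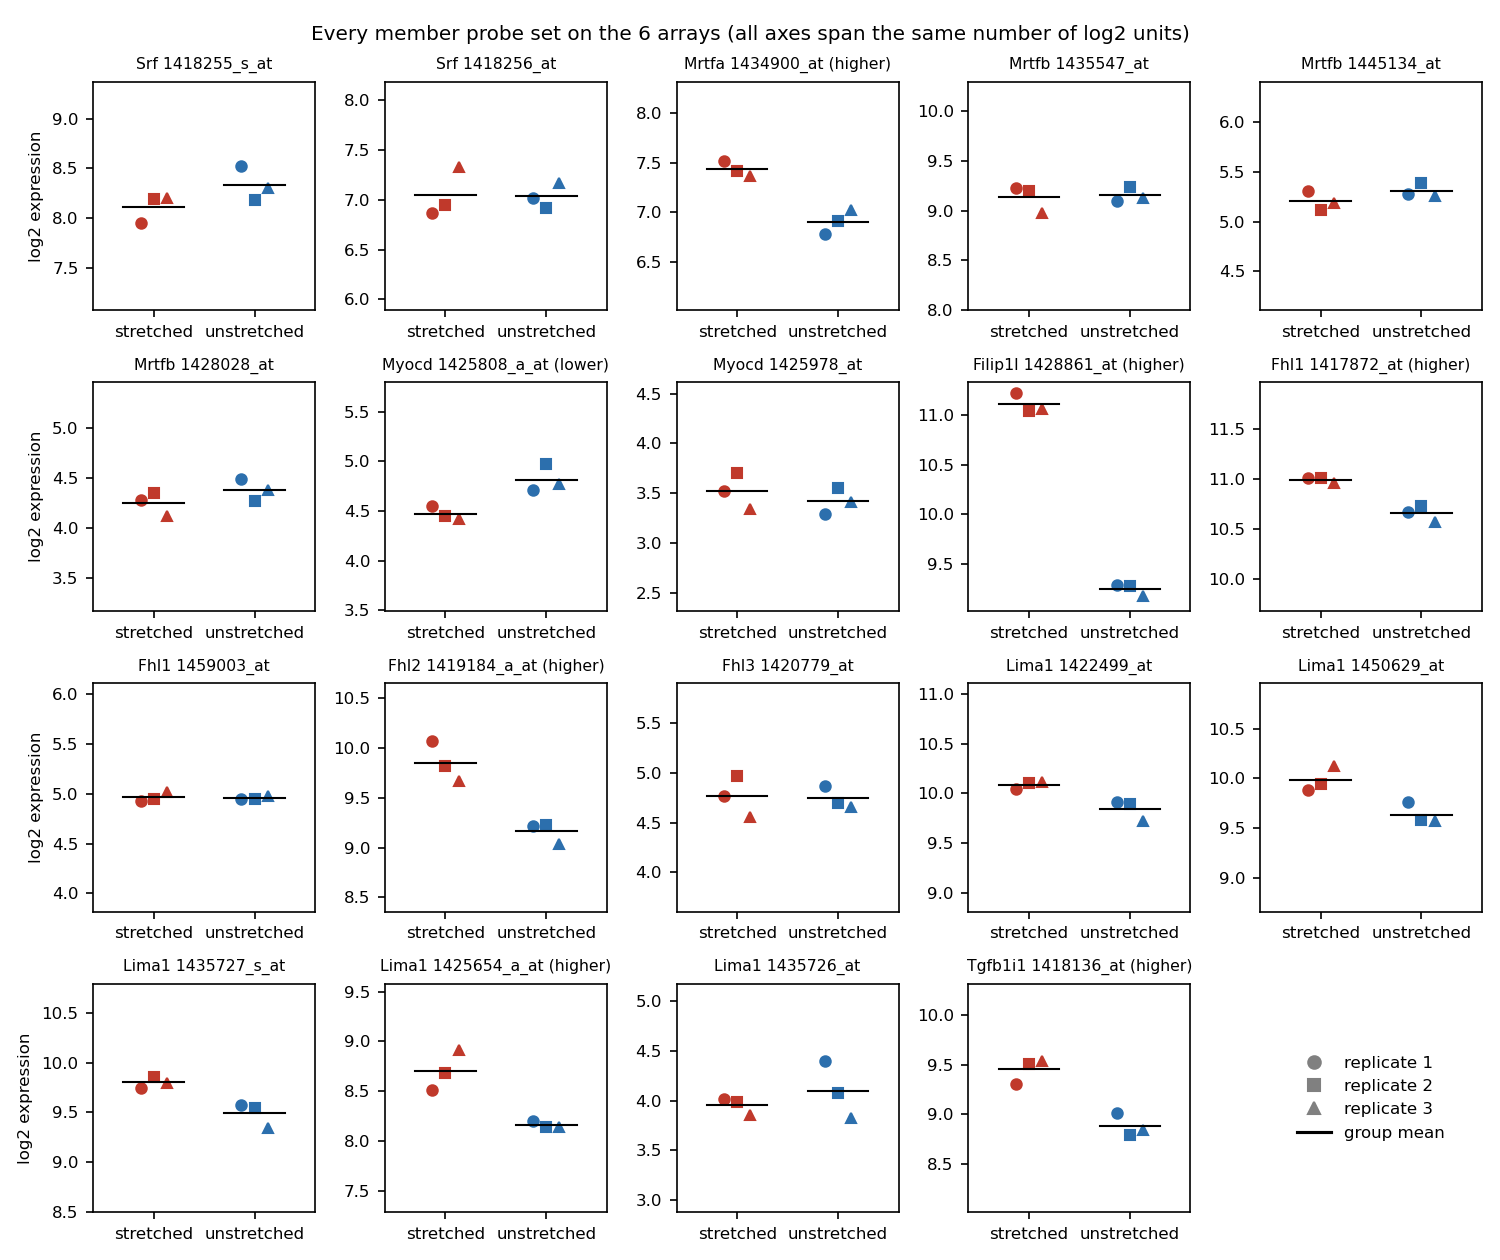
Log2 expression (vertical axis, with the same span in every panel) of each of the 19 probe sets on the 3 stretched (left, red) and 3 unstretched (right, blue) arrays, with marker shapes for replicate numbers and bars for group means. Filip1l stands out with stretched values of 11.04 to 11.22 against unstretched values of 9.18 to 9.29, while the points of Srf, Mrtfb and Fhl3 overlap between the groups.

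Srf itself did not change past the threshold in either of its probe sets. The brighter one, 1418255_s_at, read 7.95, 8.19 and 8.20 on the stretched arrays and 8.53, 8.18 and 8.30 on the unstretched arrays. Here the groups overlapped, with stretched replicate 1 lowest and unstretched replicate 1 highest. Its log2 change was -0.22 (SE 0.12, 95% interval -0.48 to 0.03, adjusted p = 0.266), and its suffix marks probes that can match more than 1 transcript. The second, 1418256_at, read 6.87, 6.95 and 7.33 in stretched cells and 7.02, 6.92 and 7.17 in unstretched cells, again overlapping. Its log2 change of 0.02 (SE 0.13, 95% interval -0.27 to 0.30, adjusted p = 0.954) spans modest changes of either sign.

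Among the coactivators, Mrtfa rose, Mrtfb did not pass, and the probe sets of Myocd were dim. Mrtfa (1434900_at), the coactivator first described as a fusion partner in megakaryoblastic leukaemia, read 7.52, 7.41 and 7.36 on stretched arrays and 6.78, 6.91 and 7.02 on unstretched arrays. Every stretched value lay above every unstretched value. The level was 1.44-fold higher (log2 change 0.52, SE 0.09, 95% interval 0.31 to 0.73, adjusted p = 0.00661).

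Mrtfb, its close relative, is read by 3 probe sets. The brightest, 1435547_at, gave 9.23, 9.20 and 8.98 in stretched cells and 9.10, 9.24 and 9.13 in unstretched cells, with full overlap and a log2 change of -0.02 (SE 0.10, 95% interval -0.24 to 0.19, adjusted p = 0.917). The other probe sets, 1445134_at and 1428028_at, had log2 changes of -0.10 (SE 0.09, adjusted p = 0.535) and -0.13 (SE 0.10, adjusted p = 0.468), and their groups overlapped too. Taken within each array, the Mrtfa minus Mrtfb difference of the brightest probe sets was -1.71 ± 0.08 log2 units in stretched and -2.26 ± 0.12 in unstretched cells (SD, n = 3 each). Its size has no meaning across probe sets, but its shift between the groups, 0.55, is the gap between the 2 changes. The stretched and unstretched differences did not overlap, and the two-sided exact permutation p was 0.1, the smallest possible, also when adjusted over the 3 pairs compared in this way, which were chosen after their values were known.

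Myocd, the myocardin coactivator of heart and smooth muscle, lay below the median probe set of the array in both of its probe sets. The brighter, 1425808_a_at, read 4.55, 4.45 and 4.42 in stretched cells and 4.71, 4.97 and 4.77 in unstretched cells, so that all stretched values were lower. It fell by 0.34 (SE 0.10, adjusted p = 0.0462) on the log2 scale, a call that ended in 9 of the 13 alternatives in which it was tested (adjusted p = 0.0316 to 0.137 over the 13), among them those that left out stretched array 1 (0.0866), 2 (0.132) or 3 (0.137) and those that left out unstretched array 2 (0.136) or 3 (0.0637). The dimmer, 1425978_at, had a log2 change of 0.11 (SE 0.11, adjusted p = 0.619) with overlapping groups. Values this low can be background, since no detection calls were used. Of 8 striated muscle markers, 6 also lay below the median probe set, and their summed level was 7.53 to 7.68 log2 units on stretched and 7.63 to 7.69 on unstretched arrays.

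**Figure D2:**
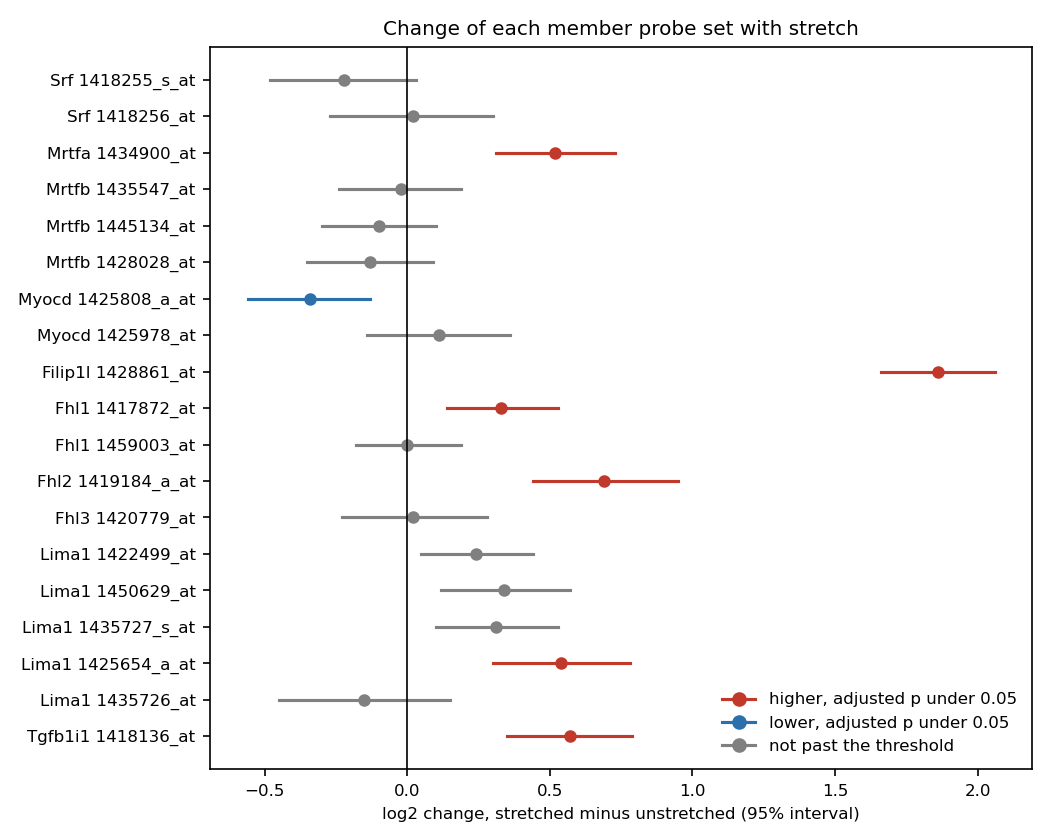
Log2 change, stretched minus unstretched (horizontal axis), with its 95% interval for each of the 19 probe sets, coloured by whether it passed an adjusted p of 0.05. Filip1l lies farthest from 0 at 1.86, 4 of the 5 Lima1 probe sets lie above 0, and the probe sets of Srf and Mrtfb have intervals that include 0.

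Filip1l, filamin A-interacting protein 1-like, had the largest change in the set. Its single probe set, 1428861_at, read 11.22, 11.04 and 11.06 on stretched arrays and 9.29, 9.28 and 9.18 on unstretched arrays. The gap between the groups was far wider than the spread within either. It was 3.63-fold higher in stretched cells (log2 change 1.86, SE 0.09, 95% interval 1.66 to 2.06, adjusted p = 7.6e-06), and it ranked 23 among all 45037 probe sets by log2 change. The profiles most like it over the 6 arrays, after each probe set was centred on its own mean, were those of Sorbs2 (root mean square difference 0.0874 log2 units), Serpinb1b (0.132) and Fst (0.142). For the brighter Srf probe set they were those of Upk1b (0.0243), Mast2 (0.0333) and Sema3f (0.0365). Neither Srf nor these genes passed (limma adjusted p = 0.221, 0.207 and 0.389 for Upk1b, Mast2 and Sema3f). Their likeness is thus over small differences between arrays, and its size cannot be set beside that for Filip1l.

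Of the four-and-a-half LIM family, Fhl2 and Fhl1 rose and Fhl3 did not pass. Fhl2, which binds integrins and Srf and is itself a known Srf target, read 10.07, 9.82 and 9.67 (1419184_a_at) in stretched cells and 9.22, 9.23 and 9.04 in unstretched cells. All stretched values were higher, with stretched replicate 1 highest. The level was 1.62-fold higher (log2 change 0.69, SE 0.11, 95% interval 0.44 to 0.95, adjusted p = 0.00403).

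Fhl1, a muscle LIM protein linked to stretch sensing at the sarcomere, has a bright probe set, which passed, and a dimmer one, which did not. The bright one, 1417872_at, read 11.01, 11.01 and 10.96 in stretched cells and 10.67, 10.73 and 10.57 in unstretched cells, without overlap. It rose by 0.33 (SE 0.09, adjusted p = 0.0326) on the log2 scale, a level 1.26-fold higher. It passed in 7 of 14 alternatives and no longer did with any 1 of the 3 stretched arrays left out (adjusted p = 0.114, 0.103 and 0.0722 for replicates 1, 2 and 3). The same held when unstretched array 1 (0.0656) or 3 (0.0788) was left out, and with a further quantile normalization (0.0970) or cyclic loess (0.0813). The dimmer probe set, 1459003_at, read 4.93, 4.95 and 5.02 in stretched and 4.95, 4.95 and 4.98 in unstretched cells, near the median probe set of the array (adjusted p = 0.983).

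Fhl3, best known from skeletal muscle, was dim, with 4.77, 4.97 and 4.56 on stretched and 4.87, 4.70 and 4.66 on unstretched arrays (1420779_at). These values overlapped, and the log2 change was 0.02 (SE 0.12, 95% interval -0.23 to 0.28, adjusted p = 0.924). Within arrays, Fhl2 minus Fhl1 was -1.14 ± 0.17 log2 units in stretched and -1.50 ± 0.04 in unstretched cells (SD, n = 3 each), a shift of 0.36 in a difference whose own size has no meaning across probe sets. It did not overlap between the groups (two-sided exact permutation p = 0.1, the smallest possible, and 0.1 adjusted over the 3 pairs). The remaining pair, Fhl2 and Fhl3, is not given as a difference, because the level of Fhl3 may be background.

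Tgfb1i1, also called Hic-5, is a paxillin-like LIM protein of focal adhesions. Its only probe set, 1418136_at, read 9.31, 9.51 and 9.54 in stretched cells and 9.01, 8.79 and 8.84 in unstretched cells. The lowest stretched value, that of replicate 1, was still above the highest unstretched value, also of replicate 1. The level was 1.48-fold higher (log2 change 0.57, SE 0.10, 95% interval 0.35 to 0.79, adjusted p = 0.00569).

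Lima1, or EPLIN, which bundles and stabilises actin filaments, has 5 probe sets, of which 1 passed. The one that rose, 1425654_a_at, read 8.51, 8.68 and 8.91 in stretched cells and 8.20, 8.14 and 8.14 in unstretched cells. Its unstretched values were close together and its stretched values spread more widely above them (log2 change 0.54, SE 0.11, 95% interval 0.30 to 0.78, adjusted p = 0.0114). The brightest, 1422499_at, read 10.04, 10.10 and 10.11 in stretched and 9.91, 9.89 and 9.72 in unstretched cells, and had a log2 change of 0.24 (SE 0.09, adjusted p = 0.117). Probe sets 1450629_at and 1435727_s_at had log2 changes of 0.34 (SE 0.10, adjusted p = 0.0526) and 0.31 (SE 0.10, adjusted p = 0.0630). In these 3 too the groups did not overlap and the stretched one was higher, although none passed, and whether the gene is called depends on which probe set is read. The last, 1435726_at, was dim and overlapped, at 4.02, 3.99 and 3.85 in stretched and 4.40, 4.08 and 3.82 in unstretched cells (adjusted p = 0.565).

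**Figure D3:**
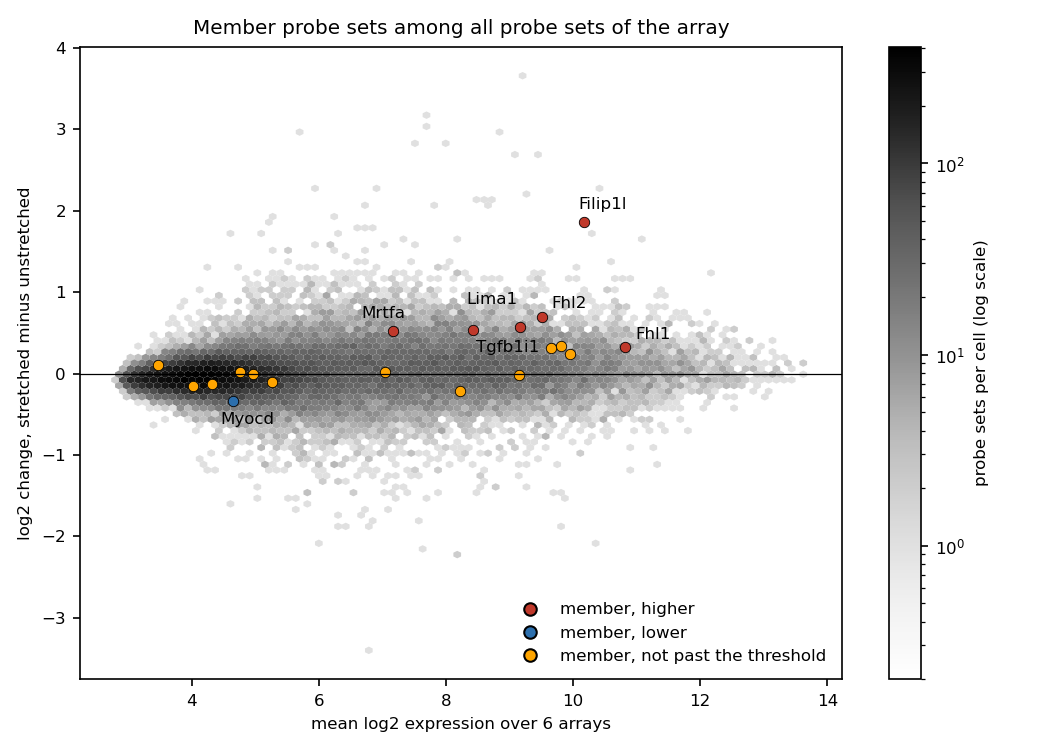
Log2 change, stretched minus unstretched (vertical axis), against the mean log2 value over the 6 arrays (horizontal axis) for all 45037 probe sets (grey, darker where more lie on a log scale), with the 19 members as coloured points. The 6 members that rose lie to the right of the median probe set, Filip1l stands highest at 1.86, and Myocd lies among the dim probe sets.

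Over the whole array 4942 of 45037 probe sets passed, or 11.0%. The count was 2726 without stretched replicate 1, 3136 without stretched replicate 2 and 3233 without unstretched replicate 2. The 5 calls of Filip1l, Fhl2, Tgfb1i1, Mrtfa and Lima1 (1425654_a_at) passed in every alternative in which their probe set was tested. Their highest adjusted p-values over those alternatives were 0.000153 for Filip1l, 0.0179 for Fhl2, 0.0276 for Tgfb1i1, 0.0364 for Mrtfa and 0.0412 for Lima1.

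**Figure D4:**
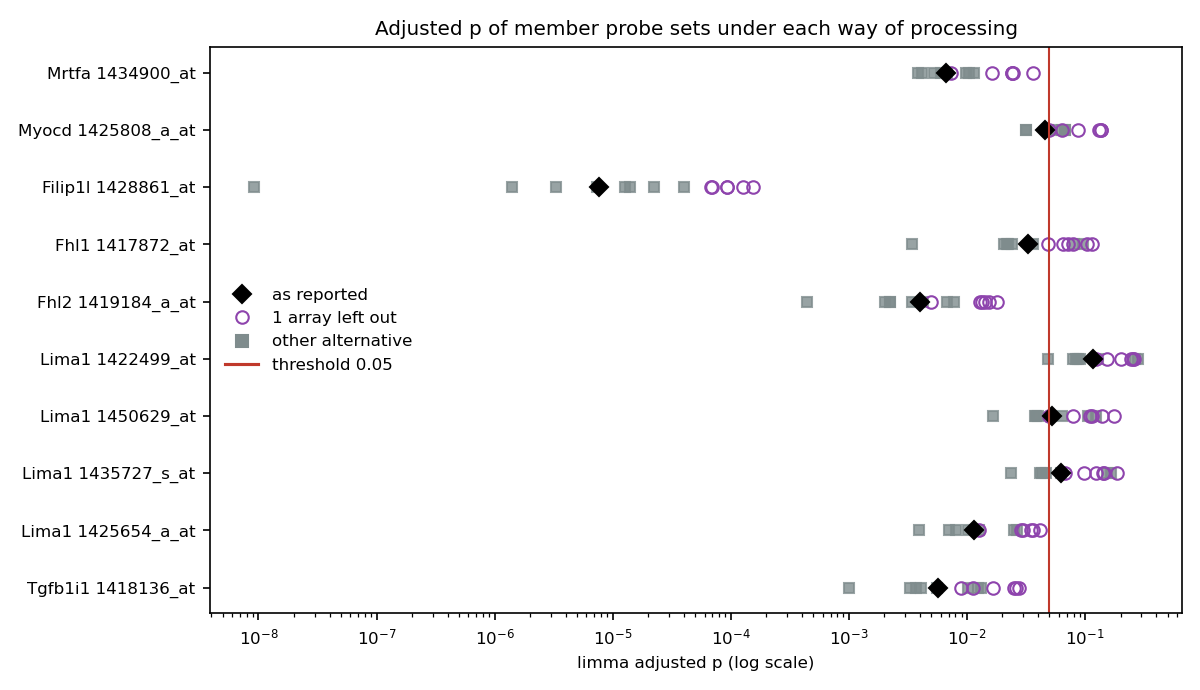
Limma adjusted p (horizontal axis, log scale) of the 7 probe sets that passed and of 3 further Lima1 probe sets, as reported (diamonds), with 1 array left out (circles) and under the other alternatives (squares), beside the threshold of 0.05 (line). Filip1l, Fhl2, Tgfb1i1, Mrtfa and Lima1 1425654_a_at stay left of the line throughout, while Myocd and Fhl1 fall on either side.

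Genes around this set were read from their brightest probe sets, where 6.94% of all 18193 genes rose and 5.77% fell. Read in the same way, 5 of the 10 members rose, 1 fell and 4 did not pass, Lima1 among the last. Of 39 contractile and adhesive genes known as targets of Srf with the myocardin-related factors, 14 rose, 0 fell and 25 did not pass (limma; 22 were higher and 0 lower at an unadjusted p under 0.05). Their median log2 change was 0.24, against -0.02 over all genes. Only 4 of the 39 lay below the median probe set. The lists were chosen with earlier results of these data known, so their counts describe them and were not tested against the share over all genes. The smooth muscle calponin gene Cnn1 rose to 10.38, 10.31 and 10.48 in stretched cells, against 9.49, 9.50 and 9.64 in unstretched cells (log2 change 0.85, SE 0.09, adjusted p = 0.000452). Filamin A (Flna), which crosslinks actin, rose by 0.77 (SE 0.09), transgelin (Tagln) by 0.73 (SE 0.09) and the LIM protein gene Csrp1 by 0.65 (SE 0.09) on the log2 scale. Beside them, 2 of 8 mesangial and smooth muscle markers rose, Cnn1 among them and the receptor gene Pdgfrb by 0.41 (SE 0.09), and the summed level of that list was 10.91 to 11.06 log2 units on stretched and 10.31 to 10.40 on unstretched arrays. Most of that sum is Cnn1, and without it the other 7 summed to 9.35 to 9.47 on stretched and 9.09 to 9.12 on unstretched arrays. Gata3 (log2 change 0.35, SE 0.11, adjusted p = 0.0694) and Cspg4 (0.28, SE 0.15, adjusted p = 0.272) did not pass. Nor did Notch3 (-0.10), Myh11 (-0.01), Rgs5 (-0.11) and Itga8 (-0.16), whose log2 changes were negative. In level 5 of the 8 lay above the median probe set, and Myh11, Rgs5 and Itga8 lay below it. The part of these markers in the counts given here was not tested.

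Genes listed as immediate early, a class that holds targets of Srf with the ternary complex factors, moved in both directions. They were read after 3 days of cyclic strain, not at its onset. Out of 18 genes, 4 passed as higher, 5 as lower and 9 not at all (6 and 6 at an unadjusted p under 0.05), and the median log2 change was 0.04. Egr1, an early zinc finger factor, fell to 8.78, 8.96 and 9.29 in stretched cells, against 10.60, 10.56 and 10.29 in unstretched cells (log2 change -1.47, SE 0.14, adjusted p = 0.000219). Its relative Egr2, dim in both groups, was lower by a log2 change of -1.10 (SE 0.10). The MAP kinase phosphatase gene Dusp1 was 3.23-fold higher (log2 change 1.69, SE 0.21, adjusted p = 0.00102), and the nuclear receptor gene Nr4a1 rose by 0.82 (SE 0.10). The remaining calls, named after their values were seen, were Fosl1 (log2 change 1.08), Klf6 (0.63), Klf4 (-0.68), Ier2 (-0.51) and Atf3 (-0.45). In place of 5 lower calls there were 2 with stretched array 1 left out. There were 3 with stretched array 3, unstretched array 1 or unstretched array 2 left out, and 6 without unstretched array 3. At an unadjusted limma p under 0.05 the first of these gave 5, and the next 3 gave 6, 5 and 5, against 6 with all arrays.

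Among 31 partners of Srf and regulators of the myocardin-related factors, 6 rose, 2 fell and 23 did not pass, with a median log2 change of 0.11. Mical2, an enzyme that oxidises actin and promotes nuclear entry of these factors, read 6.33, 6.28 and 6.38 in stretched and 5.59, 5.62 and 5.63 in unstretched cells (log2 change 0.72, SE 0.08, adjusted p = 0.000639). The ternary complex factor Elk3 rose by 0.85 (SE 0.10), the small GTPase gene Rhoc by 0.55 (SE 0.11) and Tmsb4x, whose protein binds monomeric actin, by 0.49 (SE 0.10) on the log2 scale. Rhob (log2 change 0.57, limma adjusted p = 0.0138) and the formin Diaph3 (0.46, adjusted p = 0.0369), named after their values were seen, rose too. Another formin, Diaph1, did not pass (0.31, adjusted p = 0.0521). The 2 lower genes, named after their values were seen, were the ternary complex factor Elk1 (log2 change -0.45, SE 0.10) and the formin Diaph2 (-0.52, SE 0.12). That count was 1 with stretched array 1 or unstretched array 2 left out, and 0 with stretched array 3 or unstretched array 1 left out (limma; 2 each at an unadjusted p under 0.05).

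The list of other LIM-domain genes moved in both directions, with 9 of 40 higher, 6 lower and 25 not past the threshold. Its median log2 change was 0.04. Filip1 and Xirp1, which have no LIM domain, were counted in this list, and neither passed (log2 change -0.09 for each). Fblim1, whose protein links adhesion sites to filamin, had a log2 change of 1.23 (SE 0.10, adjusted p = 0.000102), and Mical2, itself a LIM-domain protein, stands in this list as well. Of the 9 higher genes Mical2, Csrp1 and Zyx are also counted in the lists above, Mical2 among the partners and regulators and the other two among the contractile targets. Ablim1, an actin-binding LIM protein gene, fell by 0.77 (SE 0.09), and Lmcd1 fell by 0.91 (SE 0.11) on the log2 scale.

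**Figure D5:**
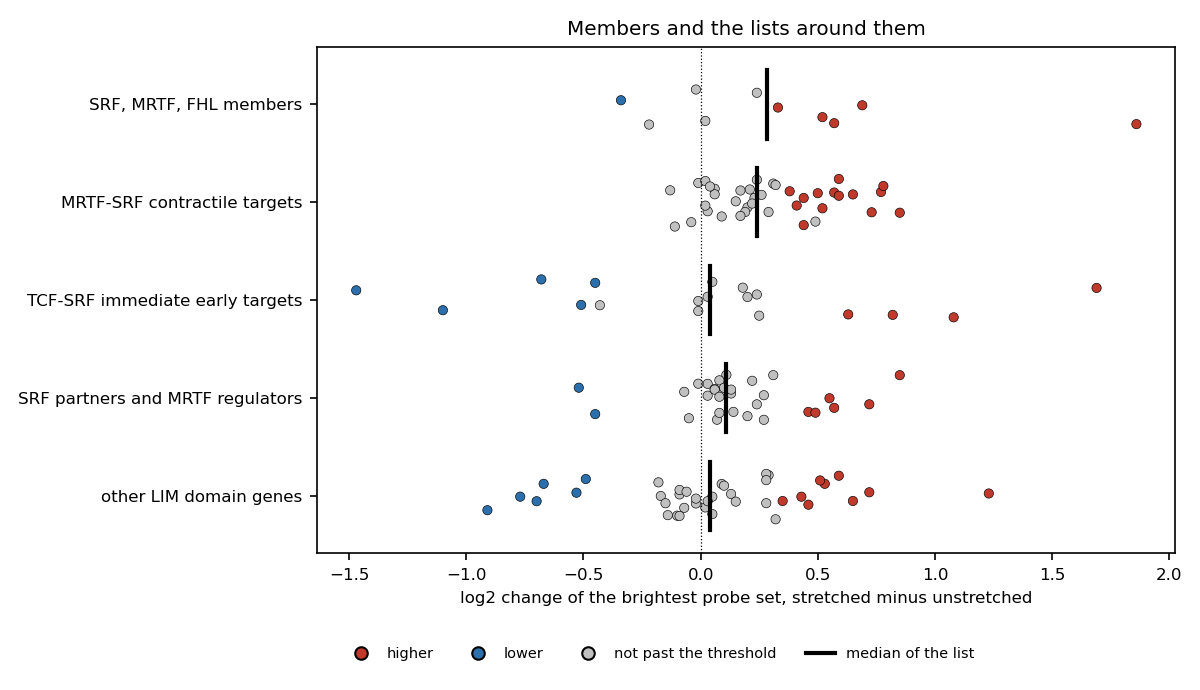
Log2 change, stretched minus unstretched, of the brightest probe set of each gene (points, coloured by call) in the 10 members and in 4 lists around them, from which the members were left out, with the list median as a bar. The medians are 0.29 for the members and 0.24 for the contractile targets, and the immediate early genes reach out on both sides, between -1.47 for Egr1 and 1.69 for Dusp1.

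The CArG box was then looked for in the genes around this set. The exact box stood in a promoter window of 8 of 34 contractile targets and 2 of 14 immediate early genes with windows. It stood in 0 of 26 partners and regulators and in 4 of 32 genes of the LIM-domain list. Of all 14452 genes on the array with windows, 1.58% had a box. Over the array, with the members left out, 8.04% of 224 genes with a box rose and 6.25% fell, while 7.04% of 14220 genes with windows and no box rose and 5.82% fell. The median log2 changes were 0.00 with a box and -0.02 without. These shares are a description and were not tested.

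Markers of other cells varied in level. None of 7 endothelial markers passed (0 higher and 0 lower, also at an unadjusted p under 0.05), and 6 lay below the median probe set, with Pecam1 and Cdh5 among them. Of 6 leukocyte markers 2 fell, Cd68 by 0.89 (SE 0.12) and Csf1r by 0.50 (SE 0.11), and the summed level of the list was 8.75 to 8.93 log2 units on stretched and 9.18 to 9.40 on unstretched arrays. In level Csf1r, Cd3e and Cd68 lay above the median probe set and Ptprc, Itgam and Aif1 below it, and without Csf1r, the brightest, the other 5 summed to 6.84 to 6.92 on stretched and 7.11 to 7.29 on unstretched arrays. Ptprc did not pass (log2 change -0.28, SE 0.10, adjusted p = 0.10). Among 7 tubule markers Cubn rose by 0.49 (SE 0.12), and the summed level was 10.23 to 10.42 log2 units in stretched and 10.17 to 10.29 in unstretched cells, nearly all of it from Lrp2 (10.13 ± 0.12 in stretched and 10.07 ± 0.08 in unstretched cells; log2, SD, n = 3 each). Without Lrp2 the other 6 summed to 7.12 to 7.30 in stretched and 7.01 to 7.24 in unstretched cells, and 4 of the 7 lay below the median probe set. Of the striated muscle markers only Tnni3 passed, with a log2 change of -0.36 (SE 0.08). The part of these markers in the changes of the 10 genes was not tested.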

How the data were processed

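Total RNA of SVI podocytes was isolated with Trizol, biotinylated and hybridised to 6 Affymetrix arrays, per the labels' protocols. What the authors deposited is a log2 value for each array and probe set, summarised by RMA per the submitters' processing notes, with its version not given in the sources used here. RMA usually levels arrays between each other, which can hide a shift of all genes, but the deposited columns are not on 1 identical distribution, and other scalings were tried. It also shrinks differences of dim probe sets. Detection calls were not used, so signal over background is unknown.

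The table holds 45101 probe sets; 64 controls were left out. The platform annotation gave 1 symbol to 34945 probe sets and several to 932, and 9160 stayed unnamed. Stretched minus unstretched was fitted on all 45037 with limma 3.58.1 (lmFit, eBayes) in R 4.3.3, with Benjamini-Hochberg adjustment and a threshold of 0.05, and no filter. Values with an SE are log2 changes, n = 3 per group. Single values were compared by exact permutation with scipy 1.17.1. Every member probe set is named; of each list around them, up to 4 genes by the size of the moderated statistic and, where 5 or fewer were called, all called genes are named. Likeness names the 3 nearest profiles. Members and lists were chosen with earlier results of these data known. The fit was tested on simulated data.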

Additional observations from a re-analysis of the deposited data

How the results depend on the processing

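There were 14 alternatives: replicate numbers as a block (fixed, or random), 3 other scalings between arrays, a filter on dim probe sets, 1 probe set a gene, another prior, and each of 6 arrays left out. Alternatives for the counts of the lists were added after seeing the data. The number of member probe sets called higher, 6 as reported, ran from 5 to 9. The number called lower, 1 as reported, was 0 with arrays centred on medians, cyclic loess, quantile normalization again, the replicate block or only probe sets above the median mean (limma; at an unadjusted p under 0.05 it was 1, 2, 2, 1 and 0), and 0 to 1 with an array left out (1 to 2 unadjusted). With 1 probe set a gene the array had 2681 calls, 1452 higher and 1229 lower, and the median member change was 0.29. With only brighter probe sets that median was 0.32, because dim members drop out. Leaving out 1 array gave 2726 to 4669 calls (1637 to 2810 higher, 1068 to 1859 lower) and a median member change of 0.07 to 0.20. Without 1 array, 2 to 6 immediate early genes and 0 to 2 partners and regulators were called lower. Fewer arrays were fitted there.

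The replicate block gave 5795 calls, kept 6 member probe sets higher, and among members ended only the Myocd call (adjusted p = 0.0521). Correlations of same-numbered arrays' deviations from their group means were 0.0246, 0.0971 and 0.269, not all over 0.1. Among stretched arrays only replicate 3 correlated best with its own number, while among unstretched arrays replicates 2 and 3 did. The numbers were not taken as pairs, but these values do not settle whether they are. The random block, with a correlation of 0.126 within replicate numbers, gave 6047 calls.

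Some changes near 0, none of them past the threshold, took the opposite sign. For Srf 1418256_at the log2 change was -0.03 with cyclic loess, -0.04 with quantile normalization again and without unstretched replicate 2, and from -0.12 to 0.10 with an array left out, the lowest without stretched replicate 3. For Mrtfb 1435547_at it was 0.01 with arrays centred on medians, 0.05 without stretched replicate 3 and 0.02 without unstretched replicate 2, within -0.07 to 0.05 with an array left out. For Fhl3 it was -0.08 without stretched replicate 2 and -0.02 without unstretched replicate 3, within -0.08 to 0.13. For Fhl1 1459003_at it was -0.02 without stretched replicate 3, -0.0005 without unstretched replicate 1 and -0.0018 without unstretched replicate 2. For Lima1 1435726_at it was 0.0036 without unstretched replicate 1, within -0.28 to 0.0036. Lima1 1450629_at passed in 5 of 13 alternatives and 1435727_s_at in 4 of 13, both with arrays centred on medians (adjusted p = 0.0385 and 0.0415), and 1422499_at passed in 1 of 14, with the other prior (0.0486). The cause of these differences was not tested.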
